A study of Danio rerio with 17 samples.

Results

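The genes described here encode proteins of the synaptic vesicle, of its fusion with the plasma membrane and of the clathrin coat that retrieves membrane afterwards. They were chosen by symbol alone: a gene was a member if its symbol on the array began with syt and a digit, snap25, stx, vamp, syn1, syn2, syp, sv2, rab3, cplx, nsf, unc13, napa, napb, slc17a6, slc17a7, clt or ap2. The rule found 52 genes among the 8793 genes with a single symbol on the array. They were read by 67 probe sets, sets of short probes that each give 1 value per array, and each gene is given by its brightest probe set, by mean over the 17 arrays. No probe set with a single symbol was found for slc17a6, slc17a7, stx1 or vamp2, which were not analysed here.

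Brains came from adult zebrafish of the AB strain, injected into the body cavity at 1 year of age with domoic acid (DA) at 1.1 ± 0.2 µg per g of fish or with the phosphate-buffered saline vehicle. DA is an algal toxin that activates ionotropic glutamate receptors, and the fish swam abnormally soon after the injection and then recovered. Each RNA sample pooled 3 to 4 brains, taken 24, 48 or 168 h after injection, and was hybridised to the Affymetrix Zebrafish Genome array. DA and control groups had 3 arrays at each time, except the 48 h controls with 2, and all values are log2 intensities normalised together by the authors.

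At a chemical synapse, neurotransmitter is stored in vesicles that dock at the active zone and fuse when calcium enters. Fusion is driven by SNARE proteins on the vesicle (VAMPs) and on the target membrane (syntaxins and SNAP-25), is timed by synaptotagmins and complexins, and is followed by NSF-driven disassembly of the SNARE complex and by clathrin-dependent retrieval of membrane. DA acts on glutamate receptors of excitatory synapses.

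DA 24 h replicate 1 stood apart, with a mean over blank probe sets of 5.74 against 4.94 to 5.18 elsewhere, and control 24 h replicate 3 had the largest difference between the 3′ and 5′ probe sets of GAPDH, at 4.63 against 2.82 to 3.70. Of 20 listed neuron markers 11 were measured, and 10 of these were above the highest blank on every array, whereas only 1 of 16 measured markers of retina, lens and pineal was (rpe65a). The sum of the log2 values of the 11 neuron markers, which is not a total RNA level, ran from 114 to 118 over all groups. Single markers differed in both directions between DA and control at 24 h, 5 higher and 6 lower, from -0.84 for rbfox1 to 0.42 for nrgna. None of the 11 passed in any comparison used here. In pooled whole brain, fewer cells of a type and less RNA per cell cannot be told apart. The labels do not say that brains were pooled from separate tanks or injection days, so p-values measure the spread between pools.

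Of the 52 members, 32 were above the highest blank on all 17 arrays and 18 on none, and the remaining genes, syt5a and stxbp2, were above it on 16 and 8 arrays. All 7 clathrin coat genes, 7 of 8 genes of the vesicle membrane and tethering, 5 of 7 calcium sensors and clamps, 4 of 7 SNARE regulators and 7 of 14 SNARE genes were above it on every array. A further 9 genes matched the rule by letters alone (rab32a, rab32b, rab35a, rab35b, rab36, nsfl1c, cltrn, sypl2a and sypl2b), of which 2 were above the blanks on every array. The genes on no array included stx8, stx6, vamp8 and unc13d, of endosomal or granule fusion, but also napab, stx3b, stx2a, syt13 and rab3gap1. For all genes on no array a measured difference is close to the floor of the array.

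No member passed an adjusted p of 0.05 (limma, over 15502 probe sets) in any comparison of DA with control. At 24 h this was 0 of 52 members against 0.0323% of all probe sets, and at 48 h, at 168 h and for the mean of the 3 times it was 0 of 52 against 0%. Without adjustment, 3 members were lower and 0 higher at 24 h at a p under 0.05, against 13.4% of all probe sets in both directions. At 48 h 1 member was higher, against 4.73%, and at 168 h 2 were higher, against 3.02%. For the mean over times 2 were higher and 2 lower, against 7.68%. Each of these member counts was near or below the background share. The smallest adjusted p of any member was 0.284 at 24 h, 0.931 at 48 h, 0.999 at 168 h and 0.451 for the mean.

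The members' differences were small and lay on both sides of 0. At 24 h, 20 members were higher and 32 lower in DA brains, with a median difference of -0.02 on the log2 scale against 0.01 over all probe sets. At 48 h, 27 were higher and 25 lower, with a median of 0.01 against 0.00. At 168 h, 34 were higher and 18 lower, with a median of 0.04 against -0.02. The 95% interval of the difference lay within 1.5-fold in either direction for 48 members at 24 h, 47 at 48 h and 48 at 168 h, and for all 52 for the mean over times. Over all probe sets those shares were 78.3%, 80.3%, 88.5% and 97.2%. The members whose interval reached further were rab3gap2, snap25a, syt5a and syt9a at 24 h, snap25a, sypb, syt5a, syt9a and vamp1a at 48 h, and cltcb, stx5al, sypb and syt5a at 168 h. The counts include the 18 members below the highest blank on every array, for which a narrow interval says little about the gene. They hold for the brightest probe set of each gene. Some other probe sets gave larger means over the times, such as -0.53 for sypb and for syt1a and 0.58 for ap2m1b.

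**Figure D1:**
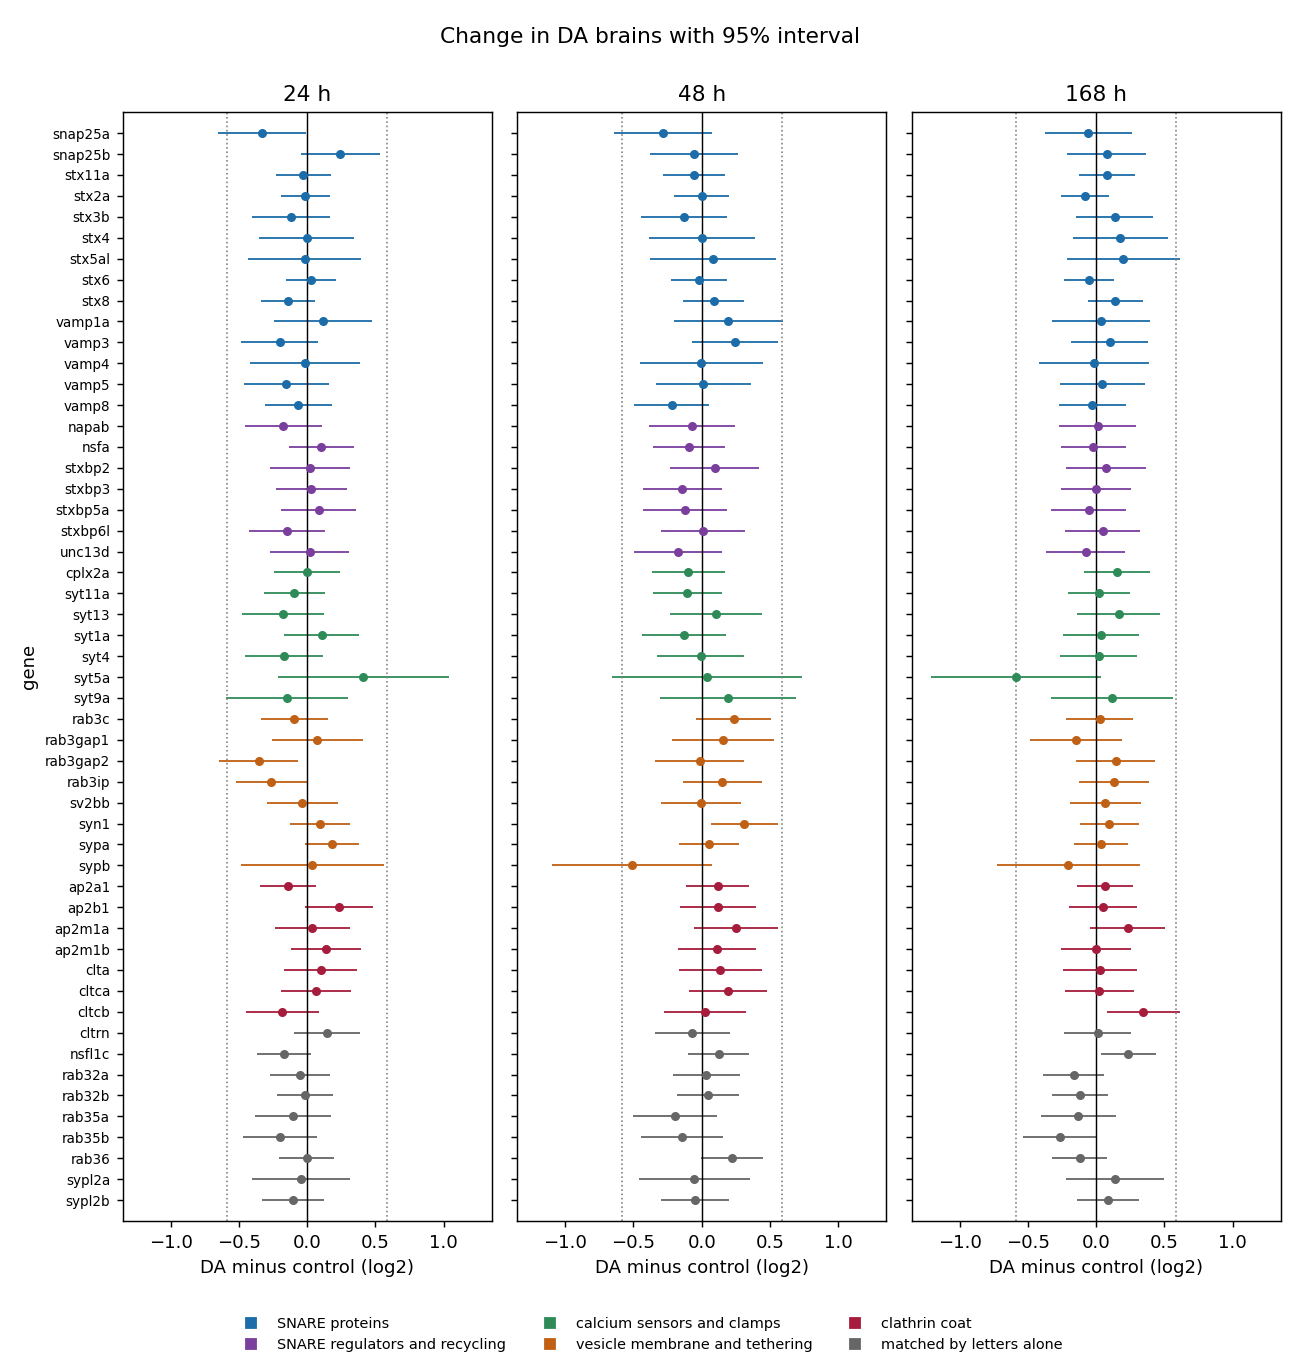
Difference of each member between DA and control brains on the log2 scale at 24, 48 and 168 h, with its 95% interval from the limma fit, grouped by role. The points lie on both sides of 0 at each time, no member passed the test, and the widest intervals belong to syt5a and sypb.

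Groups whose arrays did not overlap were counted without a test. At 24 h the DA and control arrays did not overlap for 9 members, 2 with DA above (ap2b1 and sypa) and 7 with DA below, against 12.8% of all probe sets. At 48 h this held for 17 members, 11 above and 6 below, against 27.3%, with only 2 control arrays. At 168 h it held for 6 members, 2 above and 4 below, against 10.9%.

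**Figure D2:**
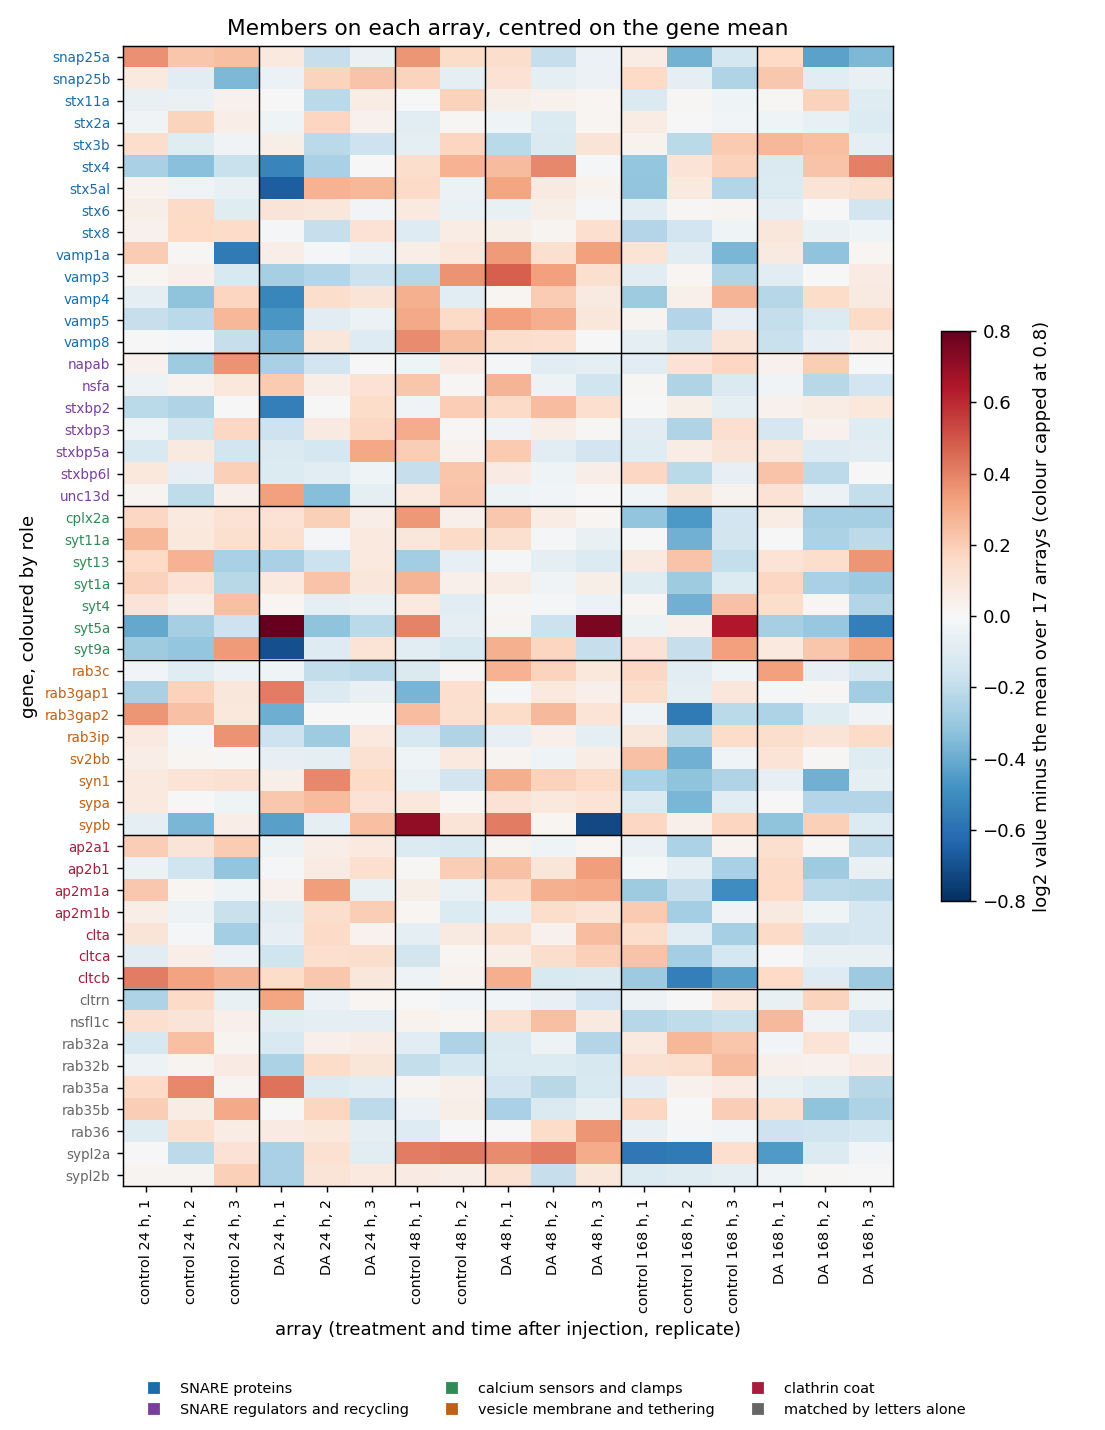
Value of every member on every array as a log2 difference from its own mean over the 17 arrays, with members in rows by role and arrays in columns by time and treatment. The colours vary from array to array within groups, and syt5a is highest on DA 24 h replicate 1.

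Among the 14 SNARE genes, 3 were higher and 11 lower at 24 h, with a median of -0.02, and none passed. The gene with the smallest p was snap25a, 1 of the 2 zebrafish copies of SNAP-25, the neuronal plasma membrane SNARE that is cleaved by botulinum toxin A in mammals. It read 13.43, 13.28 and 13.30 on the 24 h control arrays and 13.14, 12.88 and 13.01 on the 24 h DA arrays. All 3 DA arrays were below the controls, with a difference of -0.33 (SE 0.15, limma adjusted p = 0.359). At 48 h snap25a read 13.42 and 13.21 in controls and 13.20, 12.88 and 13.02 in DA brains, a difference of -0.28, with DA arrays narrowly below the controls. At 168 h the arrays overlapped, at 13.13, 12.69 and 12.92 in controls and 13.22, 12.64 and 12.70 in DA brains. The mean over times was -0.22 (SE 0.09, adjusted p = 0.525).

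The other copy, snap25b, read 13.09, 12.93 and 12.66 in 24 h controls and 12.97, 13.19 and 13.24 in 24 h DA brains. Its groups overlapped, with a difference of 0.24 (SE 0.14, adjusted p = 0.457), and the differences at 48 and 168 h were -0.05 and 0.08. The difference between the copies was not tested. For vamp1a, a vesicle SNARE of fast synapses, the differences were 0.12, 0.20 and 0.04, and vamp3, a SNARE of constitutive and recycling vesicles, gave -0.20, 0.24 and 0.10. The syntaxins that could be read were represented above the blanks by stx4 alone, a plasma membrane syntaxin of regulated secretion outside the synapse. Below the highest blank on every array, vamp8 gave -0.22 at 48 h and stx8 gave 0.14 at 168 h, and neither passed.

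The 7 SNARE regulators stayed within a range of -0.17 to 0.10 at 24 h, and none passed. The ATPase nsfa, which takes apart spent SNARE complexes, gave 0.10, -0.09 and -0.02 at the 3 times, and its other probe set gave 0.33, -0.05 and -0.38. The tomosyn gene stxbp5a, whose product holds syntaxin and SNAP-25 in an inactive complex in mammals, gave 0.08, -0.12 and -0.06. For the mean over times 1 of the 7 was higher and 6 were lower, with a median of -0.03.

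The group named calcium sensors and clamps was formed by symbol, from synaptotagmin and complexin genes, without regard to calcium binding. Of its 7 genes, 2 were higher and 5 lower at 24 h. The gene syt1a encodes a copy of synaptotagmin 1, the calcium sensor of fast release, and read 13.11, 13.04 and 12.71 in 24 h controls and 13.01, 13.16 and 13.02 in DA brains. The groups overlapped, and the differences at the 3 times were 0.10, -0.13 and 0.04. Its other probe set gave -0.59, -0.53 and -0.47, with a mean of -0.53 (SE 0.17, adjusted p = 0.300). At 24 h that probe set read 10.19, 10.26 and 11.42 in controls and 10.00, 9.98 and 10.14 in DA brains. The 11.42 came from control 24 h replicate 3, the array with the largest GAPDH difference. The complexin gene cplx2a, whose product clamps and primes the SNARE complex, gave 0.00, -0.10 and 0.15. For syt4, which binds calcium poorly in mammals, all 24 h DA arrays (13.01, 12.92 and 12.93) were below the controls (13.09, 13.04 and 13.23), with a difference of -0.17 (adjusted p = 0.594).

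Among the 8 genes of the vesicle membrane and tethering, syn1 had the smallest p at 48 h. Synapsin 1 ties vesicles to the cytoskeleton and to each other in the reserve pool. It read 9.40 and 9.31 in 48 h controls and 9.75, 9.64 and 9.61 in 48 h DA brains, so that all DA arrays were above the controls. The difference was 0.31 (SE 0.11, limma adjusted p = 0.931). At 24 h its values were 9.53, 9.57 and 9.58 in controls and 9.50, 9.84 and 9.61 in DA brains, and at 168 h they were 9.20, 9.13 and 9.22 against 9.39, 9.07 and 9.38. The groups overlapped at both times, and the mean over times was 0.17 (SE 0.06, adjusted p = 0.451).

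The genes rab3gap2 and rab3ip had the smallest p values of the members at 24 h beside snap25a. The gene rab3gap2, the non-catalytic subunit of the complex that switches Rab3 off, read 8.24, 8.12 and 7.97 in controls and 7.49, 7.88 and 7.88 in DA brains. All DA arrays lay below the controls, with a difference of -0.36 (SE 0.14, adjusted p = 0.284), and 7.49 came from DA 24 h replicate 1. The gene rab3ip, whose product is an exchange factor of Rab GTPases in mammals, read 10.31, 10.22 and 10.60 in controls and 10.07, 9.95 and 10.31 in DA brains, which overlapped, with a difference of -0.26 (SE 0.12, adjusted p = 0.368). Without DA 24 h replicate 1 the difference of rab3gap2 was -0.23. Without that array and control 24 h replicate 3 together the differences were -0.30 for rab3gap2 and -0.13 for rab3ip, and -0.41 for snap25a. At 168 h the differences of rab3gap2 and rab3ip were above 0, at 0.14 and 0.13. The vesicle GTPase gene rab3c gave -0.09, 0.23 and 0.03, and sv2bb, a vesicle glycoprotein gene, gave -0.03, -0.01 and 0.07.

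The synaptophysins are abundant membrane proteins of the vesicle. For sypa the 24 h DA arrays (11.99, 12.03 and 11.90) were all above the controls (11.85, 11.78 and 11.75), a difference of 0.18 (SE 0.09, adjusted p = 0.415), and the later differences were 0.05 and 0.04. For sypb the arrays varied widely, at 12.46 and 11.85 in 48 h controls and 12.15, 11.76 and 11.03 in 48 h DA brains, a difference of -0.51 (SE 0.28) that did not pass and that ran from -0.81 to -0.20 with 1 array left out at a time. Its differences at 24 and 168 h were 0.04 and -0.21, and the other 2 probe sets of the gene gave means over the times of -0.53 and -0.31, which did not pass either.

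**Figure D3:**
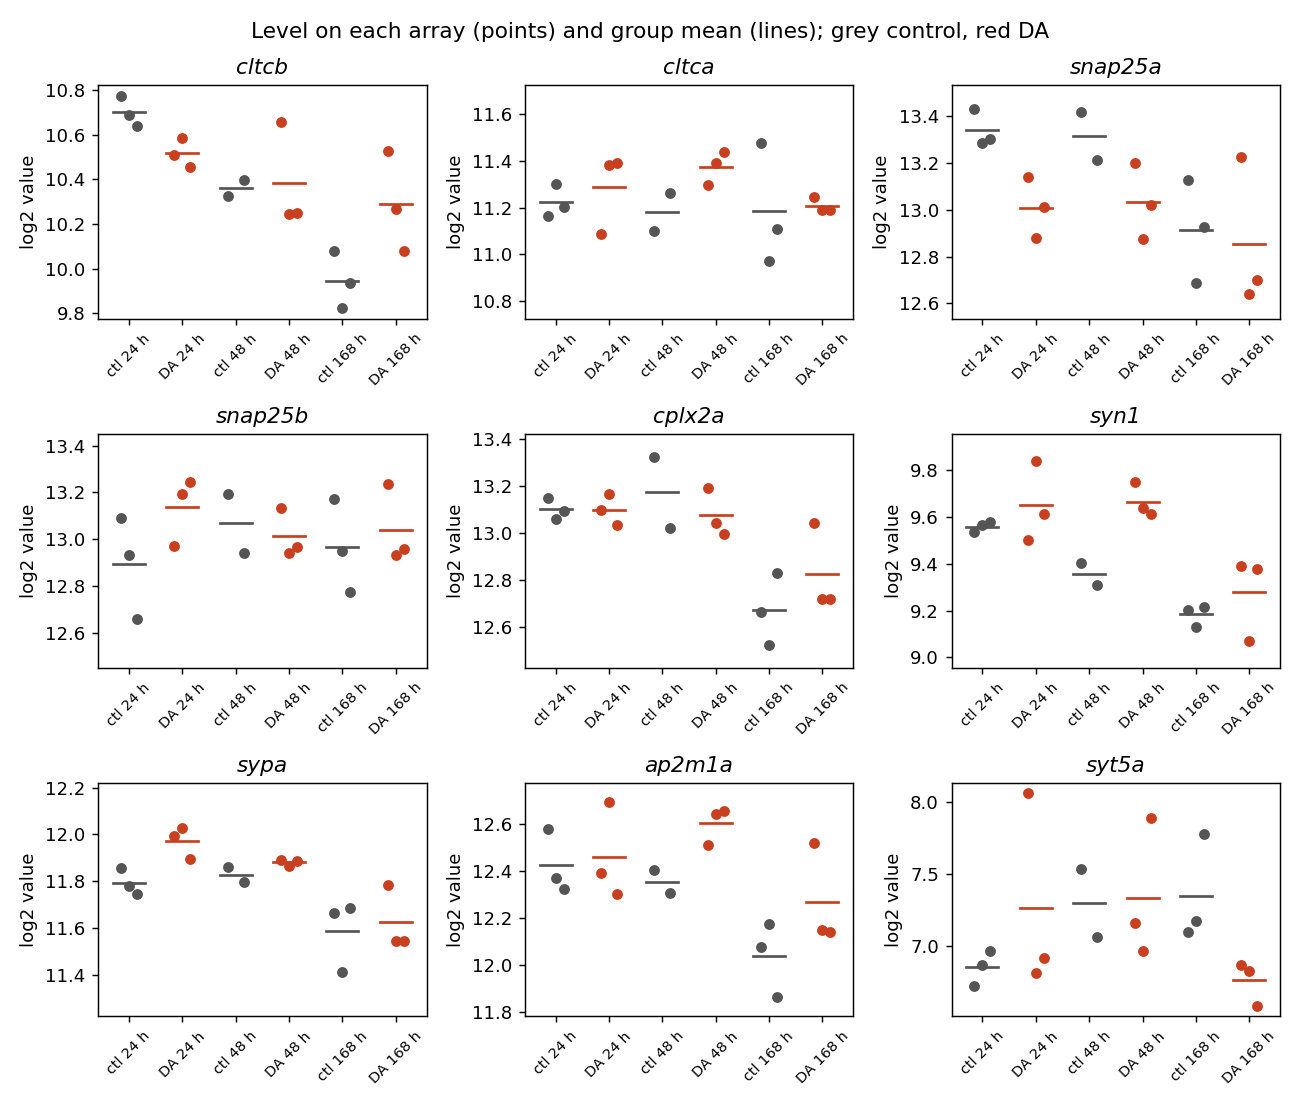
Level on the log2 scale of cltcb, cltca, snap25a, snap25b, cplx2a, syn1, sypa, ap2m1a and syt5a on each array, by time and treatment, with 1 point per pool of brains and a line at each group mean. Control points of cltcb lie between 10.64 and 10.78 at 24 h and between 9.82 and 10.08 at 168 h.

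All 7 clathrin coat genes were higher in DA brains at 48 h, with a median difference of 0.12, and for the mean over times, with a median of 0.09, and none passed. Over all probe sets the median was 0.00 in both, and 50.2% and 49.8% were higher. The 7 genes were read on the same arrays, with only 2 controls at 48 h, so their signs are not independent. The smallest 48 h difference was 0.02, for cltcb. At 24 h 5 of the 7 were higher and 2 lower, ap2a1 and cltcb, whose DA arrays all lay below the controls. The adaptor complex AP2 links cargo and membrane to clathrin, and its µ subunit gene ap2m1a read 12.40 and 12.31 in 48 h controls and 12.51, 12.65 and 12.66 in DA brains, with no overlap. At 168 h it read 12.08, 12.18 and 11.86 in controls and 12.52, 12.15 and 12.14 in DA brains, which overlapped, and its mean difference was 0.17 (SE 0.08, adjusted p = 0.610). The β subunit gene ap2b1 gave 0.24 at 24 h (SE 0.12, adjusted p = 0.396), with DA arrays at 11.17, 11.25 and 11.31 against controls at 11.13, 11.02 and 10.87. The light chain gene clta gave 0.10, 0.14 and 0.03, and the heavy chain gene cltca gave 0.07, 0.19 and 0.02. A second probe set of cltca gave 0.03, 0.06 and 0.38, and none passed.

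Of the genes matched by letters alone, nsfl1c encodes p47, a cofactor of the p97 ATPase in Golgi reassembly. Its DA arrays lay below the controls at 24 h (8.46, 8.48 and 8.47 against 8.69, 8.65 and 8.59) and above them at 168 h (8.81, 8.52 and 8.42 against 8.32, 8.35 and 8.38). The differences were -0.17 (adjusted p = 0.442) and 0.24 (adjusted p = 0.999). Its other 2 probe sets gave 0.16 and 0.27 at 24 h and -0.02 and -0.02 at 168 h, so that the probe sets differed in sign. On both of these, control 24 h replicate 3 read lowest of the 24 h controls, at 7.24 and 5.56. The small GTPase gene rab35b, of endocytic recycling, had a mean difference of -0.20 (SE 0.08, adjusted p = 0.454), but was below the highest blank on every array. So were rab35a, with -0.20 at 48 h and a mean of -0.14, and rab32a, with -0.17 at 168 h, and neither passed.

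No member's DA effect differed between times at an adjusted p under 0.05, against 0% of all probe sets, and the smallest adjusted p was 0.776 (limma F test). At an unadjusted p under 0.05 there were 2 members, nsfl1c and cltcb, against 6.26%.

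Time among the vehicle-injected controls gave the only call. Of 52 members 1 passed, against 0.4% of all probe sets: cltcb, a second gene for the clathrin heavy chain, the structural leg of the coat. On control arrays it read 10.78, 10.69 and 10.64 at 24 h, 10.33 and 10.40 at 48 h, and 10.08, 9.82 and 9.94 at 168 h, with no overlap between any of the times. The limma F test gave an adjusted p of 0.0342, and the level fell by 0.76 on the log2 scale from 24 to 168 h (SE 0.13, 95% interval -1.02 to -0.49, a 1.69-fold lower level, adjusted p = 0.0167). In that pairwise comparison 0.445% of all probe sets passed.

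On DA arrays cltcb read 10.51, 10.59 and 10.46 at 24 h, 10.66, 10.25 and 10.25 at 48 h, and 10.53, 10.27 and 10.08 at 168 h. The 24 h and 168 h DA arrays overlapped, with a difference of -0.23. At 168 h the lowest DA array and the highest control array were both at 10.08, the other DA arrays lay above all controls, and the difference was 0.34 (SE 0.13, adjusted p = 0.999). The test of whether the DA effect on cltcb differed between times gave an adjusted p of 0.776. The other heavy chain gene, cltca, had a control difference of -0.04 from 24 to 168 h (adjusted p = 0.957), and the difference between the genes was not tested.

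The cltcb call was lost when certain single arrays were left out, and with a spike-in covariate. Spike-in probe sets were higher on the 24 h control arrays (10.39 to 10.96) than on the 168 h control arrays (9.55 to 9.71). With the spike-in mean as a covariate the limma adjusted p was 0.282, with a difference of -0.64. Spike-in level and time ran together on these control arrays, so the covariate cannot tell them apart. Leaving out any 1 of the 24 h or 168 h control arrays moved the adjusted p to between 0.0719 and 0.166, and leaving out control 48 h replicate 1 moved it to 0.0687. Spike-in level also ran with treatment at 48 h, at 9.27, 9.40 and 9.37 on DA arrays against 10.79 and 9.70 on controls. At 24 h the DA arrays were at 10.56, 10.09 and 9.49, which overlapped the controls. The DA differences at 48 h, those of the clathrin coat genes included, therefore cannot be told apart from spike-in level.

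**Figure D4:**
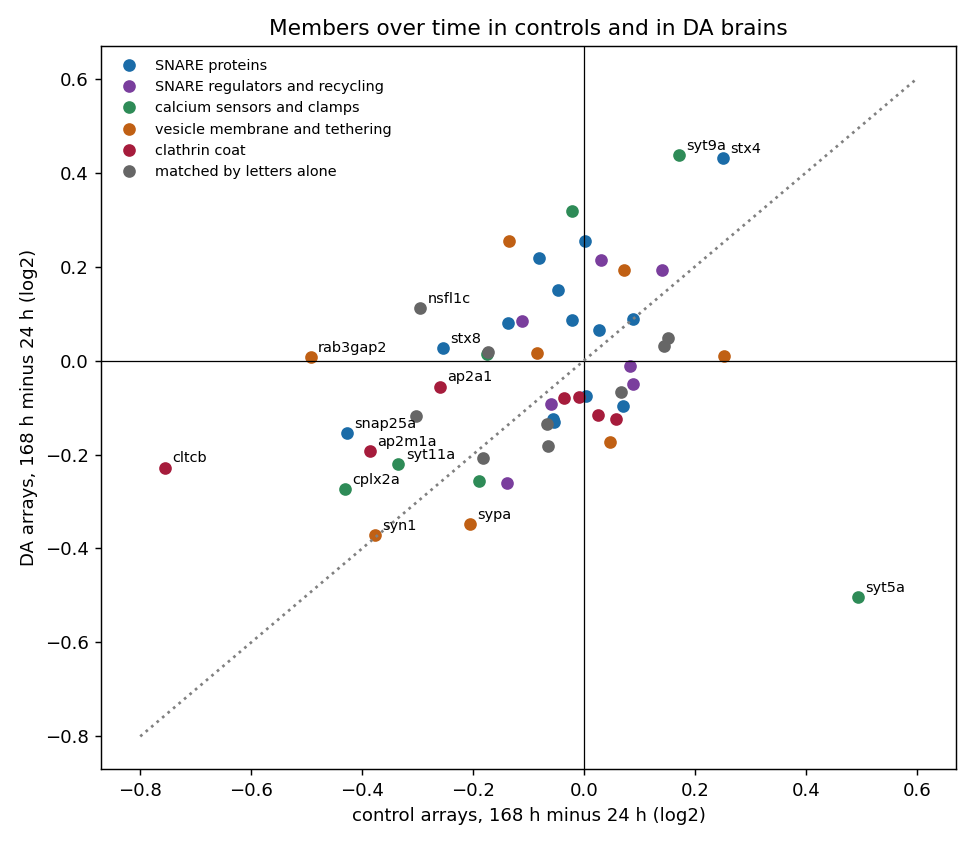
Log2 difference between 168 h and 24 h for each member in control arrays (horizontal axis) and in DA arrays (vertical axis), with members coloured by role. The point of cltcb lies farthest to the left at -0.76 in controls and at -0.23 in DA arrays, and 11 members had an unadjusted p under 0.05 in the control comparison.

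More broadly, 32 of 52 members were lower at 168 h than at 24 h in controls, with a median of -0.05 against 0.01 over all probe sets. At an unadjusted p under 0.05, 11 members were lower, a share of 21.2% against 5.71% of all probe sets, and 0 were higher, against 5.56%. All members were read on the same control arrays, so the 11 are not independent of each other. The shares over all probe sets include dim ones, and a share among bright probe sets alone is not given here. For the F test of time among controls, 13 members had an unadjusted p under 0.05, against 11.7%. The 11 lower members were cltcb, cplx2a, rab3gap2, syn1, syt11a, nsfl1c, ap2m1a, snap25a, stx8, ap2a1 and sypa, of which 10 were above the highest blank on every array. Of these, syt11a and nsfl1c had other probe sets, which did not follow: that of syt11a gave 0.06 and those of nsfl1c -0.01 and 0.20. Outside the 11, the second probe set of nsfa gave 1.14 (limma adjusted p = 0.147) against -0.14 for the first. Those of sypb gave 0.46 (limma adjusted p = 0.372) and -0.17, against 0.25 for the first. Further probe sets of other members went either way, such as -0.21 for syt1a, -0.10 for cltca and 0.39 for stx11a. Only cltcb passed the adjusted threshold, and this comparison between control times was examined with earlier results of these data known.

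The complexin gene cplx2a had the second smallest p, reading 13.15, 13.06 and 13.10 on the 24 h control arrays and 12.66, 12.52 and 12.83 on the 168 h control arrays. These did not overlap, with a difference of -0.43 (SE 0.11, limma adjusted p = 0.123). On the 168 h DA arrays it read 13.04, 12.72 and 12.72, against 13.10, 13.17 and 13.03 on the 24 h DA arrays. Synapsin 1 gave -0.38 in controls and -0.37 in DA arrays, rab3gap2 gave -0.49 and 0.01, and snap25a gave -0.43 and -0.15. The letter-matched sypl2a, related to the synaptophysins, gave -0.30 in controls from 24 to 168 h (adjusted p = 0.551) and -0.75 from 48 to 168 h, with an F test adjusted p of 0.188.

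In the DA arrays 28 members were lower at 168 h than at 24 h, 4 at an unadjusted p under 0.05 (7.69% of members against 5.83% of all probe sets) and 2 higher (against 5.41%). None passed, against 0.232%. Of the 11 members lower in controls, 8 were lower in DA arrays, 3 of them at an unadjusted p under 0.05. With the spike-in covariate the count of 11 became 6, and leaving out each array in turn gave 8 to 12. Over the same interval in controls, 3 of 7 radial glia markers were higher and 4 lower, with a median of -0.25, and none passed. Neuron markers had a median of 0.04, with 6 higher and 5 lower. The 6 higher included syngr1a at 0.06, which was below the highest blank on every array. Without syngr1a the median would lie between elavl4 at -0.15 and gap43 at 0.04, so the sign of the neuron median rests on that dim gene. The brightest neuron markers, stmn2a, gad1b and gad2, gave -0.27, -0.27 and 0.09, while tubb5 gave 0.32, and none of these passed. The part of spike-in level and of cell type markers in this result was not tested.

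The synaptotagmin gene syt5a varied more than the other members. It read 6.72, 6.87 and 6.97 in 24 h controls and 8.06, 6.81 and 6.92 in 24 h DA brains, 7.53 and 7.06 against 7.15, 6.96 and 7.88 at 48 h, and 7.09, 7.17 and 7.77 against 6.87, 6.83 and 6.58 at 168 h. All 168 h DA arrays lay below the controls, with a difference of -0.59 (SE 0.29, limma adjusted p = 0.999), and DA 24 h replicate 1 gave the highest value of all arrays. Without that array the 24 h difference was 0.013 in place of 0.41. It was above the highest blank on 16 of 17 arrays.

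The level of syt5a was set against the mean of the 16 measured markers of retina, lens and pineal, a relation chosen after its values were seen. Only 1 of the 16, rpe65a, was above the highest blank on every array, so the mean holds much signal near background. The array with the highest marker mean, DA 24 h replicate 1, also had the highest blank mean, at 5.74. Over the 17 arrays Pearson's r was 0.933 (permutation p = 1e-05, the smallest that 100000 permutations can give, adjusted p = 0.00052 over 52 relations) and Spearman's rho was 0.892 (permutation p = 2e-05, adjusted p = 0.00104). Without the 2 arrays farthest from the median of the marker mean, DA 24 h replicate 1 at 6.63 and DA 48 h replicate 3 at 6.07, r was 0.930. Within controls r was 0.956, within DA arrays 0.938, and over deviations from group means 0.954. Taken singly over the 17 arrays, the markers had lower r with syt5a, from 0.227 for opn1mw2 to 0.896 for pde6c. For rpe65a r was 0.579. Of the 52 members 1 passed in both measures, and it was syt5a. At 24 h all 16 markers were higher in DA brains (median 0.24), at 48 h 6 were higher and 10 lower, and at 168 h all 16 were lower (median -0.23), none passing. The marker mean at 24 h was 6.63 on DA replicate 1, against 5.60 and 5.68 on DA replicates 2 and 3, which lay within the controls' range of 5.52 to 5.71. The sum of the markers' log2 values ran from 88.3 to 91.3 in 24 h controls and 89.6 to 106 in 24 h DA brains. At 168 h it ran from 92.5 to 96.3 in controls and 86.4 to 88.8 in DA brains. The part of the markers in the syt5a values was not tested.

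**Figure D5:**
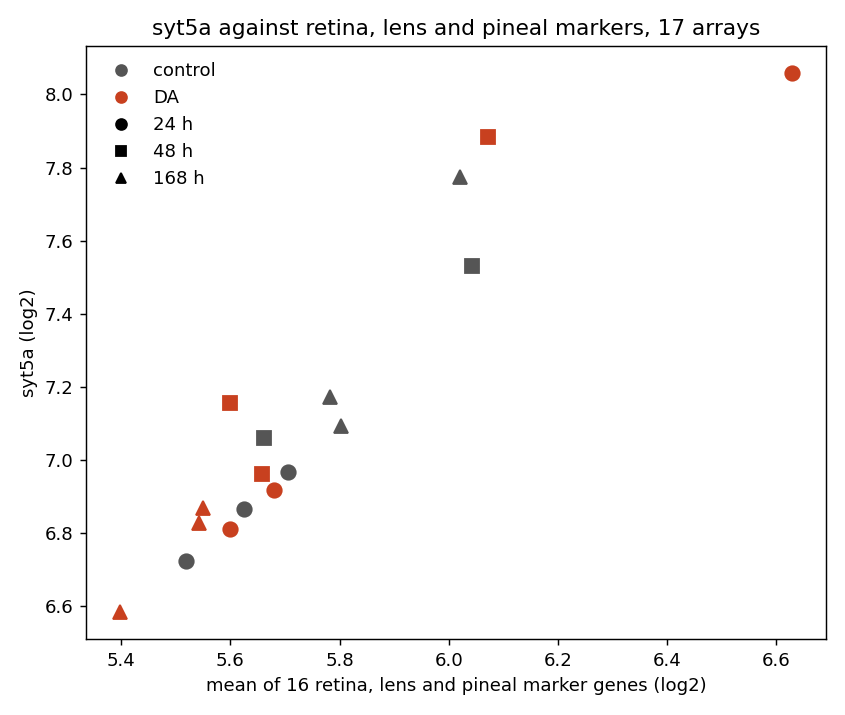
Level of syt5a (vertical axis, log2) against the mean log2 level of 16 retina, lens and pineal markers (horizontal axis) on 17 arrays, with control and DA arrays marked apart. The arrays form a rising line with r of 0.933, and DA 24 h replicate 1 lies at the upper right, at 6.63 and 8.06.

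A further 55 genes outside the rule were taken by the first letters of their symbols, aimed at the active zone, vesicle and endocytosis. They included rims2a, dnm1a, picalma, sncb and subunits of the vacuolar ATPase. Letters alone can take in genes of other roles, and some of the 55, such as dnm1a, were below the highest blank on every array. None passed in any DA comparison, in the difference of effects between times or in time among controls. At 24 h 20 were higher and 35 lower, with 1 and 7 at an unadjusted p under 0.05, against 13.4% of all probe sets in both directions. At 48 h 28 were higher and 27 lower, with 2 and 1 (against 4.73%) and differences from -0.67 to 0.44. At 168 h 28 were higher and 27 lower, with 1 and 1 (against 3.02%), and for the mean over times 25 were higher and 30 lower, with 2 and 6 (against 7.68%). In controls from 24 to 168 h, 18 were higher and 37 lower, with 1 and 10 at an unadjusted p under 0.05, against 5.56% higher and 5.71% lower over all probe sets. The γ-synuclein gene sncgb had the lowest value at -0.91 (limma adjusted p = 0.0626).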

How the data were processed

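The deposited values are log2 intensities per probe set, made by the authors with oligo, RMA and limma per the submitters' processing notes, with versions not given in the sources used here. Quantile normalisation, a step of RMA, takes out a shift common to most transcripts. Of 15617 probe sets, 115 manufacturer controls served for array quality, and the other 15502 entered the tests unfiltered. Symbols came from the platform annotation, and 52 of 52 member symbols were unchanged on update.

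All 17 arrays were fitted together (limma 3.58.1, R 4.3.3) as 6 group means. Two-sided moderated p-values were adjusted by the Benjamini-Hochberg method over the 15502 probe sets, with a threshold of 0.05. The residual degrees of freedom were 11 and the prior degrees of freedom 4.39. The number of arrays limits the precision. Members, lists and alternatives were chosen with earlier results of these data known.

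Named with values were members that passed, the 4 with the smallest unadjusted p per direction in each DA comparison and their mean, the 4 with the smallest in each F test, and paralog families. Other members named beside these were chosen after their values were seen. Replicate numbers were not taken as pairs. The fit was tested on simulated data. Alternatives were median centring, cyclic loess, array weights, removal of dim probe sets, robust variances with a trend, a replicate block, spike-in and blank covariates, means over probe sets, a narrower member list, the 2 groups of a comparison alone, each array left out, and DA 24 h replicate 1 and control 24 h replicate 3 left out together. The count of members lower at 168 h among controls, the syt5a relation and their alternatives were added after seeing the data.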

Additional observations from a re-analysis of the deposited data

Results flagged for a closer look

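For 4 members, DA arrays lay wholly above the controls at one time and wholly below at another. For ap2a1, an AP2 subunit gene, the difference was -0.14 at 24 h and 0.12 at 48 h. For nsfl1c it was -0.17 at 24 h, 0.12 at 48 h and 0.24 at 168 h. For rab32b it was 0.047 at 48 h and -0.12 at 168 h, and for rab36 0.22 at 48 h and -0.12 at 168 h; both genes were below the highest blank on every array. These opposite separations were not tested as pairs of times. The limma F test of the DA effect between all 3 times gave adjusted p values of 0.834 for ap2a1, 0.776 for nsfl1c, 0.905 for rab32b and 0.806 for rab36. With 3 arrays against 2 at 48 h, 27.3% of all probe sets separated, against 12.8% at 24 h and 10.9% at 168 h. How many of all probe sets separated in opposite directions at different times was not counted. The count of 4 members therefore has no background share beside it.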

How the results depend on the processing

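The count of members that passed in each DA comparison and in the difference between times was 0 under every alternative run, each array left out included (limma; the counts at an unadjusted p under 0.05 stand in the report, and at 24 h they ran from 1 to 9). Over all probe sets, 5 passed at 24 h, against 217 without DA 24 h replicate 1. Same-numbered DA and control arrays correlated from -0.33 to 0.22 in their deviations from group means. With 2 or 3 arrays per group this cannot settle whether the numbers pair samples. The replicate block changed no call: cltcb kept its call for time among controls (limma adjusted p = 0.0250). That call was lost (count 0) with the spike-in covariate, and the count ran from 0 to 1 with each array left out. It was lost without any 1 of control 24 h replicates 1, 2 and 3, control 48 h replicate 1, control 168 h replicates 1, 2 and 3, DA 48 h replicate 2 and DA 168 h replicate 2. The count of members lower at 168 h in controls was 6 with the spike-in covariate and 8 to 12 with each array left out, and 13 without DA 24 h replicate 1 and control 24 h replicate 3 together. The members' median difference at 24 h was -0.070 with the spike-in covariate. With each array left out the medians ran from -0.081 to 0.0084 at 24 h, from -0.0038 to 0.025 at 48 h, from -0.021 to 0.079 at 168 h and from -0.011 to 0.025 for the mean.

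Some small differences of members that did not pass turned sign. At 168 h nsfa was 0.014 with median centring. With the blank covariate nsfa was 0.0056 and cltca -0.014 at 168 h, and syt5a was -0.043 at 24 h. With array weights, cplx2a at 24 h was 0.011, syt1a at 168 h -0.025 and vamp1a at 168 h -0.085. With the spike-in covariate, rab35a at 48 h was 0.0088, cltca at 24 h -0.0081, cplx2a 0.14 at 24 h and 0.081 at 48 h, nsfa at 48 h 0.0051, snap25b at 48 h 0.086 and syt1a at 48 h 0.11. Without DA 24 h replicate 1 and control 24 h replicate 3 together, vamp1a at 24 h was -0.14. With the mean over probe sets, nsfl1c was 0.087 at 24 h and its effect at 168 h minus that at 24 h was -0.022, and syt1a was -0.24 at 24 h and -0.21 at 168 h. With each array left out, 24 h values ran from -0.037 to 0.031 for cplx2a, from -0.018 to 0.18 for syt1a and from -0.11 to 0.28 for vamp1a. At 48 h they ran from -0.11 to 0.092 for cltcb, from -0.25 to 0.055 for cplx2a, from -0.22 to 0.012 for nsfa and from -0.18 to 0.073 for snap25b. At 168 h they ran from -0.084 to 0.17 for cltca, from -0.082 to 0.042 for nsfa, from -0.24 to 0.051 for snap25a, from -0.021 to 0.18 for snap25b, from -0.11 to 0.12 for syt1a and from -0.088 to 0.16 for vamp1a. The cause was not tested. With 18 members below the highest blank on every array, signal over background limits what can be seen of them.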

Other observations

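For 13 members other probe sets of the same gene were also read, and some did not follow the probe set described above. The second probe set of sypb read 10.99, 10.66 and 11.34 on the 24 h control arrays, with 11.34 on control 24 h replicate 3. The 24 h DA arrays all lay below these, with 10.39 and 10.26 on replicates 2 and 3. For this probe set the mean difference over the times was -0.53 (SE 0.12, limma adjusted p = 0.110), with differences of -0.61, -0.51 and -0.48 at 24, 48 and 168 h. The third probe set gave -0.31 (adjusted p = 0.487), against -0.23 for the probe set described above. The second probe set of syt1a gave a mean of -0.53 (SE 0.17, adjusted p = 0.300) against 0.00 for the first. On it, control 24 h replicate 3 read 11.42 against 10.19 and 10.26 on the other 24 h controls. The second probe set of syt11a gave -0.21, -0.20 and -0.28 at 24, 48 and 168 h. Its mean was -0.23 (SE 0.09, limma adjusted p = 0.54), against -0.06 for the first. A second probe set of sypl2a gave -0.35 (SE 0.08, adjusted p = 0.110), but was below the highest blank on every array. A second probe set of ap2m1b gave 0.58 (SE 0.20, adjusted p = 0.384) against 0.08 for the first. On that second probe set the 24 h controls read 8.62, 8.26 and 7.07, with 7.07 on control 24 h replicate 3. The 24 h DA arrays read 8.64, 8.76 and 8.87. None of these mean differences passed the threshold, and the difference between probe sets of a gene was not tested.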
